A study of Mus musculus with 4 samples.

Results

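The 10 genes described here are regulators of the primitive streak and of early mesoderm, chosen by name: the secreted signals Nodal, Lefty2 and Wnt3, the homeobox genes Mixl1, Gsc and Evx1, the T-box gene Tbx6, and the basic helix-loop-helix genes Msgn1, Mesp1 and Mesp2. All 10 were among the 46406 gene rows of the table, each in 1 row, and the rule uses their names and no measured value. They were followed by ATAC-seq, in which the transposase Tn5 cuts and tags accessible DNA, in 2 libraries with Zscan4 overexpression (Zscan4 OE) and 2 control libraries labelled wild type. All 4 came from J1, a mouse embryonic stem cell line of 129-strain origin, grown feeder-free under what the labels call traditional conditions and all labelled passage PN+8. Zscan4 is a zinc finger protein of 2-cell embryos that stem cells make in brief bursts. How it was expressed, for how long, from how many clones, and whether replicates were separate cultures are details the labels used here do not state. Every p-value therefore speaks only to the scatter of these 4 libraries, part or all of which may be technical.

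In the gastrulating embryo, posterior epiblast cells move through the primitive streak to become mesoderm and endoderm. Wnt3 and Nodal start and maintain the streak, Lefty proteins restrain Nodal, and the transcription factors take up the response in turn: Mixl1, Evx1 and Gsc in and around the streak, Mesp1 in the first mesoderm to leave it, and Msgn1, Tbx6 and Mesp2 in the presomitic mesoderm that is cut into somites. Undifferentiated embryonic stem cells keep most of these genes silent but primed, while Nodal and its Lefty inhibitors are active in them. The series title ties Zscan4 to the loss of a co-repressor complex and to more accessible chromatin. The comparison therefore asks whether these genes were more accessible with Zscan4 OE.

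Each value is in RPKM, reads scaled by the length of the feature and by the library total, after each library was put back on its own total. Feature lengths ran between 7.02% of the gene's span for Wnt3 and 108% for Msgn1, where the counted annotation reached beyond the RefSeq gene. A value is therefore taken to cover mostly exons, and the promoters shown next were not measured. Promoters of 8 of the 10 genes were matched in RefSeq (GRCm38.p6, the assembly behind mm10), as windows of 250 bases before to 50 after the gene's start. Their GC content was between 48.7% in Evx1 and 65.7% in Wnt3, against a median of 52.7% over 32851 windows. The ratio of observed to expected CpG was 0.934 in Gsc, 0.744 in Wnt3 and 0.710 in Evx1, but 0.174 in Mesp1 and 0.197 in Msgn1, against a median of 0.384 over all windows. So CpG-rich and CpG-poor starts were both present among these genes. Msgn1 is shown as the gene with the largest difference and Mesp1 as the one with the most negative, and these were also the only 2 of the 8 with the TCF/LEF letters CTTTGAT on either strand, by which Wnt signalling is read. Mixl1 and Lefty2 had no matched window and were not searched, and a relation of the letters to the differences was not tested. Gsc is shown as the most CpG-rich start. The sequences are the 250 bases before the start, 5′ to 3′ on the gene's strand, and capitals mark a searched motif.

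Msgn1, minus strand, chr12:11208949-11209198, with CTTTGAT on the opposite strand 203 bases before the start: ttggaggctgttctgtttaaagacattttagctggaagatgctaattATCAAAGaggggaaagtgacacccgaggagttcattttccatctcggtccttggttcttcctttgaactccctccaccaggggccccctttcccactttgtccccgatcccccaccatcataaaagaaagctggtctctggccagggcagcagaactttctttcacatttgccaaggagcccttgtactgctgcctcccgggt
Mesp1, minus strand, chr7:79793591-79793840, with CTTTGAT 31 bases before the start: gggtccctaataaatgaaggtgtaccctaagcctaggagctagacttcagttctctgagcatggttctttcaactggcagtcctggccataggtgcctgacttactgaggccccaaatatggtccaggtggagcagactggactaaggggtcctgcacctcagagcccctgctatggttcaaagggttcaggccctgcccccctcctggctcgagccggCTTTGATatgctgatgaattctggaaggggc
Gsc, minus strand, chr12:104473237-104473486, with TATAAA 164 bases before the start: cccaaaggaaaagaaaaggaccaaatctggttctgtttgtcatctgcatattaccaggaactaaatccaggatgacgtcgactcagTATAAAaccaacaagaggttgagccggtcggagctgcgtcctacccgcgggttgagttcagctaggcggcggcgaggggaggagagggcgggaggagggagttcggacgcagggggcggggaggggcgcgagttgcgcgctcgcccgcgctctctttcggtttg

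CTTTGAT stood in 3.73% of all windows. The FOXH1 letters AATCCAC, by which Nodal signalling is read, stood in 2.49% of all windows and, among these genes, in the Mesp2 window. The T-box letters TCACACC stood in 3.98% of all windows and in that of Mesp1. TATAAA stood in 13.6%, and in Gsc and Tbx6. The Zscan4 letters TGCACAC stood in 4.40% of all windows and in 0 of the 8. Both strands were searched, and a match is a description of the letters and not of a bound site.

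Reads were few. Library totals were 3605774 and 4899494 reads in Zscan4 OE 1 and 2, and 1061428 and 2903602 in controls 1 and 2. Features of the table took up 12.8% and 9.93% of these in Zscan4 OE and 12.4% and 9.38% in controls. The pluripotency markers of stem cells averaged 2.68 and 1.40 RPKM in Zscan4 OE and 2.19 and 1.25 RPKM in controls, and fibroblast markers, which would mark feeder cells, averaged 1.09 and 0.798 RPKM in Zscan4 OE and 0.897 and 0.892 RPKM in controls. Accessibility over exons cannot show which genes were expressed. The 10 genes had 98 and 83 reads together in Zscan4 OE 1 and 2, and 37 and 48 in controls 1 and 2. Per gene the 4 libraries gave between 12 reads, for Msgn1, and 66, for Nodal, and in control 1 there were 6 genes with 3 reads or fewer. PCR duplicates could not be told from separate molecules here, so the 95% intervals below (exact Poisson for values) cover counting error only.

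**Figure D1:**
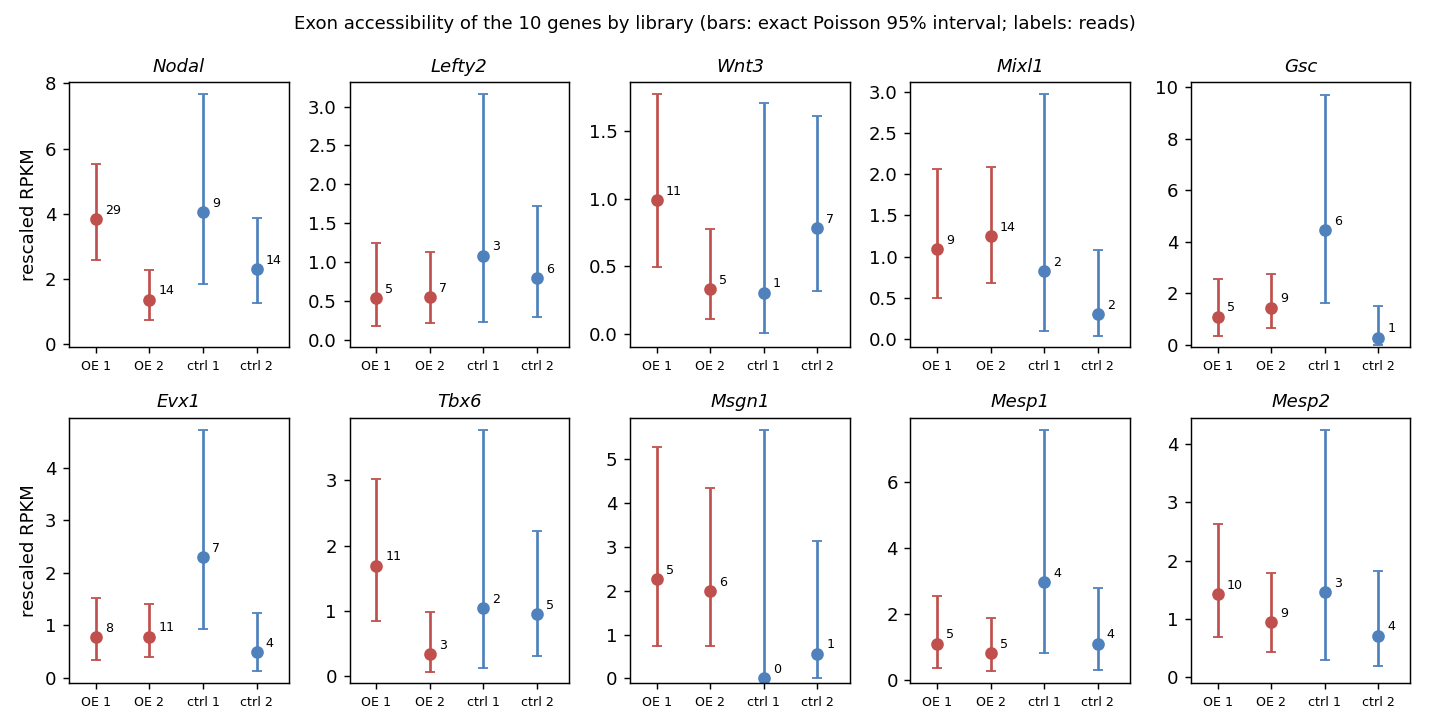
Rescaled RPKM over the exons of each gene in the 4 libraries, with exact Poisson 95% intervals as bars and the read count beside each point; Zscan4 OE (OE) is in red and control (ctrl) in blue, and each panel has its own scale. The groups do not overlap in Msgn1 and Mixl1, where Zscan4 OE is higher, and in Lefty2, where it is lower.

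No gene of the 10 passed the test. With limma on log2(RPKM + 0.1), 0 of 10 had a Benjamini-Hochberg adjusted p under 0.05 over all 42989 rows tested, and 0% of all rows did. With 2 libraries a group at this depth, a missed threshold does not show that values did not differ. The difference was positive in 5 genes and negative in 5. After each library was centred on its median, 2 were positive and 8 negative, because the median row of the main comparison itself lay at 0.28. That median was not fixed: it was 0.14 over rows with at least 20 reads and 0.096 with a pseudocount of 1. Rows at 0 were most common in control 1 (40.4%), then control 2 (25.4%), Zscan4 OE 1 (19.6%) and Zscan4 OE 2 (16.1%). The median of the 10 genes minus that of all rows was −0.40, and −0.26 among rows with at least 20 reads. Whether depth set the 0.28 was not tested. At an unadjusted p under 0.05 there was 1 gene, Msgn1, which was higher, where 5.09% of all rows were higher and 1.33% lower. With voom on the 8 genes with 20 reads or more, 0 passed and 0 reached an unadjusted p under 0.05. Msgn1, with 12 reads, was not among them, so this does not bear on it. Both Zscan4 OE values were above both controls in 2 genes and below both in 1, against 19.6% and 10.1% of all rows, which is close to the background.

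Among the signals, Nodal, the TGF-beta family ligand that patterns the streak (chromosome 10, 61417972 to 61425338, GRCm38), had the highest level per length in both groups. It was at 3.84 and 1.36 RPKM in Zscan4 OE 1 and 2, from 29 and 14 reads, and at 4.05 and 2.30 RPKM in controls 1 and 2, from 9 and 14 reads. The first library of each group was the higher one and the groups overlapped. Its mean over the 4 libraries lay at the 94.6th percentile of all tested rows. The means of 2.60 ± 1.75 RPKM in Zscan4 OE and 3.17 ± 1.23 RPKM in controls (SD, n = 2 each) gave a log2 difference of −0.39 (SE 0.681, limma adjusted p = 0.934), within the spread between replicates. That difference was 0.32 without Zscan4 OE 2.

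Lefty2, a secreted inhibitor of Nodal (chromosome 1, 180893108 to 180899107), was the 1 gene of the 10 with lower values in both Zscan4 OE libraries than in both controls. It was at 0.531 and 0.547 RPKM in Zscan4 OE 1 and 2, from 5 and 7 reads, and at 1.08 and 0.791 RPKM in controls 1 and 2, from 3 and 6 reads. The groups did not overlap, but the 95% interval of control 2 was 0.290 to 1.72 RPKM and held both Zscan4 OE values. The log2 difference was −0.68 (SE 0.532, limma adjusted p = 0.869). Lefty1, its close paralogue 35.9 kb further along the chromosome, was at 2.997 and 1.28 RPKM in Zscan4 OE 1 and 2 and at 1.07 and 2.55 RPKM in controls 1 and 2, so its groups overlapped (log2 difference 0.23, SE 0.689). Lefty1 and Lefty2 are close paralogues, and their sequences were not compared here. How the authors' counting treated reads that fit both is not stated in the labels used here, so the split between them is uncertain.

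Wnt3, the Wnt ligand needed for the streak to form (chromosome 11, 103774175 to 103818021), was at 0.992 and 0.332 RPKM in Zscan4 OE 1 and 2, from 11 and 5 reads, and at 0.306 and 0.784 RPKM in controls 1 and 2, from 1 and 7 reads. The 2 libraries of each group stood further apart than the group means, which were 0.662 ± 0.467 RPKM in Zscan4 OE and 0.545 ± 0.338 RPKM in controls (SD, n = 2 each). The log2 difference was 0.20 (SE 0.821, limma adjusted p = 0.988). It turned to −0.36 without control 1 and −0.47 without Zscan4 OE 1.

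Among the homeobox genes, Mixl1, a paired-type factor of streak mesendoderm (chromosome 1, 180693043 to 180697034), had higher values in both Zscan4 OE libraries. It was at 1.09 and 1.25 RPKM in Zscan4 OE 1 and 2, from 9 and 14 reads, and at 0.821 and 0.300 RPKM in controls 1 and 2, from 2 reads each. The groups did not overlap, and the 95% interval of control 1, 0.0995 to 2.97 RPKM, held both Zscan4 OE values. The log2 difference was 1.06 (SE 0.642, limma adjusted p = 0.869), between 0.46 without control 2 and 1.66 without control 1. Pooled reads per library total were 2.68-fold higher in Zscan4 OE than in controls (23 and 4 reads, exact 95% interval 0.916 to 10.7). In the values as deposited, which mix library totals, Mixl1 stood at 1.76 and 5.75 in Zscan4 OE and at 0.300 and 0.362 in controls, a log2 difference of 2.94.

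Gsc, a homeobox repressor of the anterior streak (chromosome 12, 104471209 to 104473236), was the most uneven of the 10. It was at 1.09 and 1.45 RPKM in Zscan4 OE 1 and 2, from 5 and 9 reads, and at 4.46 and 0.272 RPKM in controls 1 and 2, from 6 reads and 1 read. The controls lay on either side of both Zscan4 OE values. Its log2 difference of 0.06 (SE 1.29, limma adjusted p = 0.993) became 1.87 without control 1 and −1.75 without control 2.

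Evx1, an even-skipped-type factor of the posterior streak (chromosome 6, 52313498 to 52318389), showed the same division of the controls. It was at 0.771 and 0.780 RPKM in Zscan4 OE 1 and 2, from 8 and 11 reads, and at 2.29 and 0.479 RPKM in controls 1 and 2, from 7 and 4 reads. The log2 difference was −0.43 (SE 0.83, limma adjusted p = 0.948), 0.60 without control 1 and −1.45 without control 2, so 1 control library set its direction.

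Among the factors of presomitic mesoderm, Msgn1 (mesogenin 1, chromosome 12, 11208382 to 11208948), a helix-loop-helix gene that drives cells into presomitic fate, differed most. It was at 2.26 and 2.00 RPKM in Zscan4 OE 1 and 2, from 5 and 6 reads, and at 0 and 0.562 RPKM in controls 1 and 2, from 0 reads and 1 read. Both Zscan4 OE libraries were above both controls. In control 1, however, a count of 0 allows up to 3 reads, which for this feature of 613 bases is 4.61 RPKM and more than either Zscan4 OE value. The log2 difference was 3.11 (SE 1.06, unadjusted p = 0.0369 and adjusted p = 0.693 in limma), and it depended on the pseudocount, at 1.32 with 1 and 4.82 with 0.01. It was 4.48 without control 2 and 1.75 without control 1. Pooled reads per library total gave a ratio of 5.13, Zscan4 OE over control, from 11 reads and 1 read, with an exact 95% interval of 0.745 to 221 that includes 1. The 5 other genes of the table within 100 kb of Msgn1, a window chosen after its values were seen, were at 1.37 and 0.911 RPKM together in Zscan4 OE 1 and 2, from 127 and 115 reads, and at 0.768 and 0.615 RPKM in controls 1 and 2, from 21 and 46 reads. Its neighbours also stood higher in both Zscan4 OE libraries. So did those of Evx1, at 0.675 and 0.627 RPKM in Zscan4 OE and 0.598 and 0.377 RPKM in controls, while Evx1 itself had a log2 difference of −0.43. Of all single rows, 19.6% had both Zscan4 OE values above both controls, so this order is common. A background for sets of neighbours, such as those of Msgn1 and Evx1, was not computed. The groups overlapped for the neighbours of each of the other genes: those of Mixl1 were at 1.46 and 1.09 RPKM in Zscan4 OE and 1.56 and 0.968 RPKM in controls, and those of Lefty2 at 2.30 and 1.44 RPKM in Zscan4 OE and 2.02 and 1.42 RPKM in controls.

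Tbx6, a T-box factor that keeps presomitic cells from a neural fate (chromosome 7, 126781483 to 126785548), was at 1.69 and 0.339 RPKM in Zscan4 OE 1 and 2, from 11 and 3 reads, and at 1.04 and 0.955 RPKM in controls 1 and 2, from 2 and 5 reads. The Zscan4 OE libraries lay on either side of the controls. The log2 difference was −0.31 (SE 0.828, limma adjusted p = 0.972), 0.71 without Zscan4 OE 2 and −1.32 without Zscan4 OE 1.

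Mesp1 and Mesp2 lie 17.1 kb apart on chromosome 7 (79792241 to 79793590 and 79810727 to 79813431). Mesp1, which marks the first cardiac and cranial mesoderm, was at 1.09 and 0.800 RPKM in Zscan4 OE 1 and 2, from 5 reads each, and at 2.96 and 1.08 RPKM in controls 1 and 2, from 4 reads each. Control 1 was highest, and control 2 lay between the Zscan4 OE libraries. Its log2 difference of −0.88 (SE 0.641, limma adjusted p = 0.869) was the most negative of the 10. It was −0.19 without control 1 and −1.56 without control 2. Mesp2, which sets somite boundaries, was at 1.43 and 0.945 RPKM in Zscan4 OE 1 and 2, from 10 and 9 reads, and at 1.45 and 0.709 RPKM in controls 1 and 2, from 3 and 4 reads. Its groups overlapped almost fully (log2 difference 0.17, SE 0.575, limma adjusted p = 0.981).

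**Figure D2:**
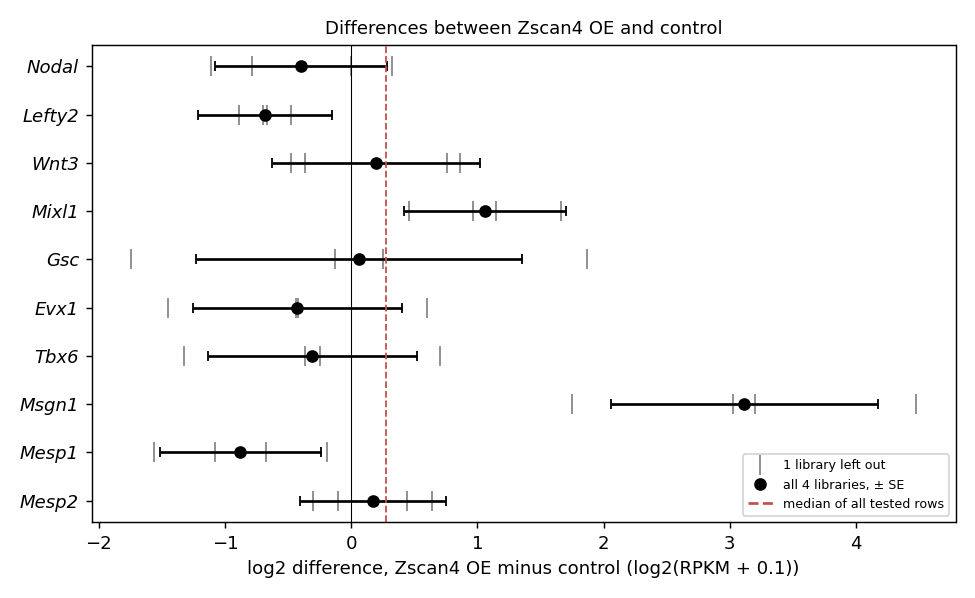
Log2 difference of each gene, Zscan4 OE minus control, with its standard error (black) and the values with 1 library left out (grey ticks); the dashed line is the median of all tested rows, 0.28. Msgn1 lies furthest right, at 3.11, and the ticks of Gsc run between −1.75 and 1.87.

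The order of levels within a group was not resolved between neighbours. In Zscan4 OE it ran, high to low, Nodal, Msgn1, Gsc, Mesp2, Mixl1, Tbx6, Mesp1, Evx1, Wnt3 and Lefty2, and in controls Nodal, Gsc, Mesp1, Evx1, Mesp2, Tbx6, Lefty2, Mixl1, Wnt3 and Msgn1. The gap between neighbours in these orders was smaller than the larger of their SDs, except for Msgn1 over Gsc in Zscan4 OE (0.859 against 0.251 RPKM) and Lefty2 over Mixl1 in controls (0.376 against 0.368 RPKM).

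Summed over the 10 genes, reads per 1000000 of the library total (RPM) did not separate the groups. The sums were 27.2 RPM (95% interval 22.1 to 33.1) and 16.9 RPM (13.5 to 21.0) in Zscan4 OE 1 and 2, and 34.9 RPM (24.5 to 48.0) and 16.5 RPM (12.2 to 21.9) in controls 1 and 2. In each group the first library was the higher one, and the controls lay outside both Zscan4 OE values. The means were 22.1 ± 7.24 RPM in Zscan4 OE and 25.7 ± 12.96 RPM in controls (SD, n = 2 each), a ratio of 0.859 (two-sided exact permutation p = 1, where 0.333 is the smallest that 2 against 2 can give). The ratio was 0.836 per exon read, and between 0.794 without Mixl1 and 0.913 without Evx1. It was 1.33 without control 1 and 1.06 without Zscan4 OE 2, so its direction rested on single libraries. Nodal alone held 29.6% of the reads in Zscan4 OE 1 and 29.2% in control 2.

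**Figure D3:**
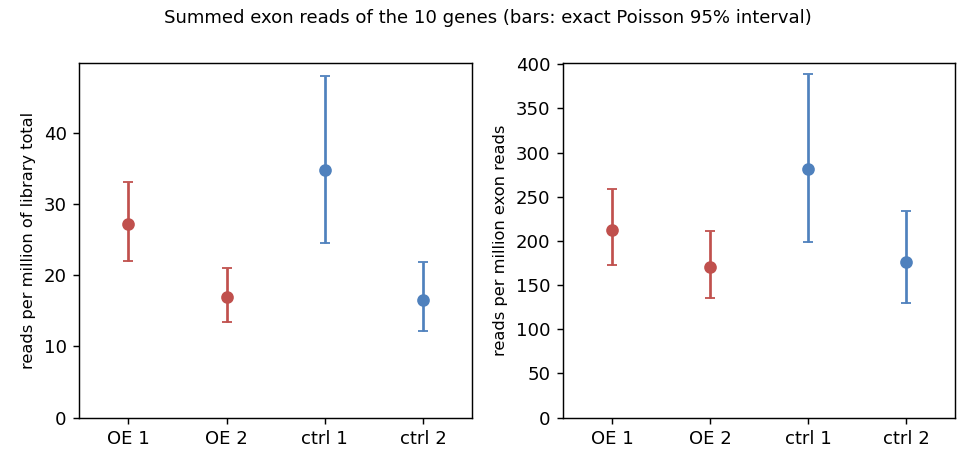
Reads of the 10 genes summed in each library, as RPM (left) and scaled by the exon reads of the library instead of its total (right), with exact Poisson 95% intervals; Zscan4 OE is in red and control in blue. On the left, control 1 is highest at 34.9 RPM and control 2 lowest at 16.5 RPM; on the right, per 1000000 exon reads, control 1 is highest at 282 and Zscan4 OE 2 lowest at 171, just under control 2 at 176.

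The genes that act with these regulators gave no call over all genes either. Of 20 further Nodal pathway genes, the difference was positive in 13, negative in 7, and past the threshold in 0 (limma, 0 also at an unadjusted p under 0.05), with a median of 0.16 beside 0.28 over all rows, and of 0.050 to 0.395 with 1 library left out in turn. Centring on library medians turned it to −0.11. Tdgf1, the co-receptor of Nodal, was at 2.64 and 2.34 RPKM in Zscan4 OE 1 and 2 and at 0.719 and 1.44 RPKM in controls 1 and 2, which did not overlap (log2 difference 1.20, SE 0.517, limma adjusted p = 0.869). Smad2, which carries the Nodal signal to the nucleus, was at 1.56 and 1.09 RPKM in Zscan4 OE and 0.531 and 0.194 RPKM in controls, from 20, 19, 2 and 2 reads (log2 difference 1.71, limma adjusted p = 0.806). Both genes are named because they had the largest statistics of the list.

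Of 25 Wnt pathway genes, 14 were positive and 11 negative and 0 passed, with a median of 0.04 that ran between −0.039 without control 2 and 0.21 without Zscan4 OE 2 and was −0.23 after centring. At an unadjusted p under 0.05 there was 1, Notum, which encodes a secreted Wnt-inactivating enzyme, with lower values. It was at 1.04 and 1.02 RPKM in Zscan4 OE 1 and 2, from 9 and 12 reads, and at 2.74 and 2.72 RPKM in controls 1 and 2, from 7 and 19 reads (log2 difference −1.33, SE 0.411, limma adjusted p = 0.619). Wnt3a, the ligand that maintains the later streak, was at 1.004 and 0.591 RPKM in Zscan4 OE and 2.39 and 1.12 RPKM in controls (log2 difference −0.997, SE 0.602). Sp5, a direct target of Wnt signalling, was at 0.528 and 0.389 RPKM in Zscan4 OE and 2.24 and 0.656 RPKM in controls, from 4, 4, 5 and 4 reads.

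Of 19 other streak and mesoderm genes, 7 were positive and 12 negative and 0 passed, with a median of −0.30. It was −0.08 without control 1, −0.71 without control 2 and, with voom on the 15 genes with 20 reads or more, 0.13 (8 positive, 7 negative). In 9 of them the groups did not overlap with lower values in Zscan4 OE, and in 1 with higher values, beside the 10.1% and 19.6% of all rows given above. Their summed reads were 51.6 and 51.0 RPM in Zscan4 OE 1 and 2 and 77.3 and 53.7 RPM in controls 1 and 2, so the groups stood apart by less than the difference between the controls. Groups did not overlap, lower and higher, in 3 and 7 of 20 Nodal pathway and 4 and 4 of 25 Wnt pathway genes. For presomitic genes it was 5 and 3 of 19, and for neuroectoderm 3 and 0 of 15. For primitive endoderm it was 4 and 3 of 18, and for trophectoderm 4 and 3 of 15. T (brachyury), the T-box factor that defines the streak, was at 0.599 and 0.793 RPKM in Zscan4 OE and 0.814 and 1.34 RPKM in controls (log2 difference −0.54, SE 0.541, limma adjusted p = 0.869). Eomes, its T-box partner in early mesendoderm, was at 0.934 and 0.933 RPKM in Zscan4 OE and 1.59 and 0.995 RPKM in controls (log2 difference −0.39). Fgf8, a signal of the streak, had the largest statistic, at 0.411 and 0.605 RPKM in Zscan4 OE and 2.79 and 1.53 RPKM in controls, from 1, 2, 2 and 3 reads (log2 difference −1.86, limma unadjusted p = 0.0238 and adjusted p = 0.584). Hand1, a factor of extraembryonic and cardiac mesoderm, was at 0.972 and 0.920 RPKM in Zscan4 OE and 1.89 and 2.24 RPKM in controls (log2 difference −1.04). The groups of these 4 genes did not overlap, at 1 to 19 reads a library.

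Of 19 presomitic mesoderm genes, 8 were positive and 11 negative and 0 passed, with a median of −0.14 that turned to 0.065 without control 1 and 0.0023 without Zscan4 OE 2. Ripply2, a co-repressor that works with Tbx6 and Mesp2 at the somite boundary, had 2 and 4 reads in Zscan4 OE 1 and 2 and 0 in both controls (limma unadjusted p = 0.0143, adjusted p = 0.477). Pax3, a factor of the dorsal somite, went the other way, at 0.314 and 0.363 RPKM in Zscan4 OE and 0.761 and 1.28 RPKM in controls (log2 difference −1.32, adjusted p = 0.869). The 10 regulators had a median of −0.12, beside −0.08 in 15 neuroectoderm, −0.27 in 18 primitive endoderm and 0.17 in 15 trophectoderm genes, lists in which 0 genes passed. Against 0, single libraries set these directions too. Without control 1 the medians were 0.30 for the 10 regulators, 0.30 for neuroectoderm, 0.018 for primitive endoderm and 0.37 for trophectoderm genes, without control 2 −0.58, −0.41, −0.031 and −0.13 in the same order, with Zscan4 OE 1 left out −0.45, −0.35, −0.26 and 0.016, and leaving out Zscan4 OE 2 gave 0.38, 0.26, −0.013 and 0.34. The median of all rows moved as well, between 0.12 without Zscan4 OE 1 and 0.36 without Zscan4 OE 2. The primitive endoderm median minus that of all rows was −0.24 to −0.38 in these fits. For the 10 regulators, neuroectoderm and trophectoderm genes it turned without control 1, to 0.0071, 0.012 and 0.080. For the 10 regulators it also turned without Zscan4 OE 2, to 0.025. The other streak and mesoderm list shares Gata4, Pdgfra and Foxa2 with primitive endoderm, and Eomes and Hand1 with trophectoderm. The medians and counts of these lists are therefore not from separate genes. No difference between the lists was tested.

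**Figure D4:**
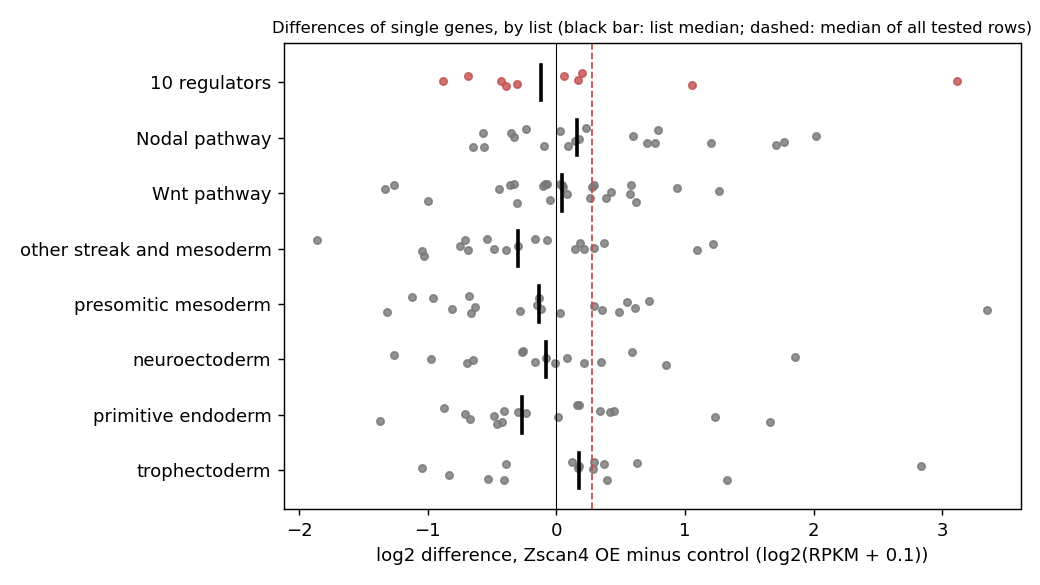
Log2 difference, Zscan4 OE minus control, of each tested gene in 8 lists, with the list's median as a black bar and the median of all tested rows as a dashed line. The medians lie between −0.30 for the other streak and mesoderm genes and 0.17 for trophectoderm genes, and single genes lie on both sides of the dashed line at 0.28 in each list.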

How the data were processed

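The submitters' processing notes list Bowtie2, Trimmomatic and featureCounts and the build mm10. Tool versions, read filters and the annotation were not stated there. The deposited table holds 1 RPKM value per gene and library, named RPKM per the labels. These values were not on 1 scale: 8 library totals took turns from row to row and column to column. Values of single reads in 2415 short RNA genes with annotated lengths gave the totals. In each of the 38361 rows with at least 2 nonzero values, exactly 1 rotation led to whole reads over a whole length. The recovered length equalled the annotated one in 88.0% of 1104 short RNA genes. Of the 8 placements in rotation order, the one with the most alike exon shares was taken (ratio of highest to lowest 1.36, next best 4.17), which sets the scale between libraries. The recovery and the test were checked on simulated data, in which limma gave the direction of large changes but passed none at the adjusted threshold. Rows averaging 0.1 RPKM or more were tested with limma 3.58.1 in R 4.3.3 (eBayes trend, no covariate, both directions, Benjamini-Hochberg over all tested rows, threshold 0.05). Coordinates are from RefSeq for GRCm38, which matched 72.6% of rows by symbol.

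The 10 genes and all lists were chosen with earlier results of these data known. Named beside the 10 were T, Eomes, Lefty1, Tdgf1 and Wnt3a, and for each list the 2 genes with the largest statistic; those of the neuroectoderm, primitive endoderm and trophectoderm lists are not described apart from Hand1. Alternatives changed the pseudocount, filter, scaling, model and libraries. Replicates of the same number were not treated as pairs, since the labels state no pairing.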

Additional observations from a re-analysis of the deposited data

How the results depend on the processing

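Over 106 fits of the 10 genes in alternatives that kept all libraries, 96 kept the direction and 10 turned it, and with 1 library left out 31 of 40 kept it. Adjusted p stayed over 0.05 in each, so 0 of the 10 passed in any alternative. Among the 106, fits that changed only the row filter, replicate block or eBayes trend could not move a difference. They kept the direction by construction. The 31 included Nodal without control 1, at −8.8e-05, a value with hardly any direction. The values as deposited gave log2 differences of 0.98 for Tbx6, 0.19 for Mesp1 and 1.03 for Nodal, and a median of 1.01 over the 10. Centring on library medians gave −0.10 for Mesp2, −0.21 for Gsc and −0.078 for Wnt3. A pseudocount of 1 gave −0.22 for Gsc, quantile normalization −0.64 for Wnt3, and voom 0.072 for Evx1 and −0.35 for Wnt3. Msgn1 and Mesp1, with under 20 reads, could not be fitted with the filter at 20 reads or with voom. Leaving out 1 library gave −1.32 to 0.71 for Tbx6, −0.30 to 0.64 for Mesp2, −1.75 to 1.87 for Gsc, −1.45 to 0.60 for Evx1, −0.47 to 0.87 for Wnt3 and −1.11 to 0.32 for Nodal. It gave −0.58 to 0.38 for the median and 0.633 to 1.33 for the ratio of summed reads. The cause was not tested.

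Over all rows 5 passed with the filter at 20 reads and 1 with voom, and 0 to 4536 with 1 library left out. The highest counts came without Zscan4 OE 1 (4536) and Zscan4 OE 2 (3891). In these fits Zscan4 OE has 1 library, assumed to vary like the controls, and the spread comes from the 2 controls alone. Ripply2, at 0 reads in both, passed there by this construction, and such counts say nothing about stability. With the replicate number as a block 0 rows passed, as without it, and the differences were the same by construction. Deviations of same-numbered libraries correlated at 0.04 across 42989 rows and at 0.13 across 19012 rows with 20 reads or more. Depth limits every value: a count of 0 allows 3 reads, which is 0.832 and 0.612 RPM in Zscan4 OE 1 and 2 and 2.83 and 1.03 RPM in controls 1 and 2.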
